A study of Mus musculus with 3 samples.

Results

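The nuclear-encoded subunits of the oxidative phosphorylation complexes were described in ADM, duct and acinar cells of the inflamed mouse pancreas. They were chosen by gene symbol alone, as every gene whose name begins with Nduf and a subunit letter and number (complex I), Uqcr (complex III), Cox4 to Cox8 with a letter (complex IV) or Atp5 (complex V). Of the 21150 genes that could be named on the array, 80 met this rule: 37 of complex I, 8 of complex III, 18 of complex IV and 17 of complex V. In the gene table used for names, 101 symbols matched, and the other 21 had no probe named here, 3 of them protein-coding genes (Ndufb1, Ndufb4b and Ndufb4c). The symbol rule does not take Cyc1, Ndufab1 or the mitochondrially encoded subunits, which were not analysed here. By symbol it puts Ndufa4, a subunit now assigned to complex IV, in complex I, and Cox7a2l, a factor that joins complexes III and IV, in complex IV.

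Oxidative phosphorylation makes most of the ATP of a resting cell. Complex I takes electrons from NADH and complex II takes them from succinate, complex III passes them to cytochrome c, complex IV passes them to oxygen, and complex V, the ATP synthase, uses the proton gradient that the pumping complexes build. Acinar cells of the pancreas make and pack digestive enzymes and are rich in mitochondria, while duct cells secrete bicarbonate and fluid.

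The study compared 3 kinds of cell cut by laser microdissection from frozen pancreas of 3 wild-type mice, all 48 h after caerulein pancreatitis. Pancreatitis was induced with caerulein, a peptide that acts on the cholecystokinin receptor and overstimulates secretion. ADM, acinar-to-ductal metaplasia, is the change by which acinar cells come to resemble duct cells and give up enzyme secretion. The groups were ADM cells, ductal cells and acinar cells, with 1 Agilent 1-colour array each and no uninjured pancreas among them. The sources used here do not give how the cells were recognised, or whether the RNA on an array came from 1 mouse or several. With 1 array a group no test between groups was possible, so all differences describe these 3 arrays, and the number of arrays limits their precision.

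Levels are log2 processed signals minus the 75th percentile of the array, so that 0 is the 75th percentile, and differences are between 2 arrays on that scale. The acinar array was the dimmest: the 75th percentile of its signal was 35.2 intensity units, against 72.2 for ADM and 95.7 for duct. The scanner called 27676 of 55664 probes well above background for ADM, 27849 for duct and 22654 for acinar. The acinar and duct arrays led in their own markers, and markers of other cells were measured on every array. The summed signal of 16 acinar markers, in units of the 75th percentile, was 9494 on the ADM array, 1561 on the duct array and 33527 on the acinar array, and that of 12 duct markers was 62.1, 153 and 22.6 in the same order of arrays. The sum over 12 macrophage markers was 461 on the ADM array, 93.3 on the duct array and 111 on the acinar array, with all 12 well above background on ADM and 11 on acinar. The sum over 11 fibroblast and stellate markers was 360, 348 and 89.1 in that order, with 11, 10 and 10 of them well above background. That over 7 islet markers was larger, at 1166, 652 and 745, with all 7 well above background on every array. In such dissected tissue, fewer cells of a type and less RNA per cell cannot be told apart, and the part of these other cells in the differences below was not tested.

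Promoter windows of 300 bases, mostly before the gene start, were available from RefSeq (build GRCm38.p6) for 65 of the 80 genes, in 70 windows. They were searched on both strands for the motifs of 3 factors known to bind promoters of respiratory genes: NRF1 (GCGCA, any base, GCGC), the ETS family to which GABP belongs (CCGGAAG) and YY1 (AAGATGGCG). A window counts once a motif, whether or not its motifs overlap. The NRF1 motif lay in 16 of the 70 windows (22.9%), against 1512 of all 32851 windows (4.603%). The ETS motif lay in 15 windows (21.4%), against 8.86% of all windows, and the YY1 motif in 7 of 70, against 1.40%. At least 1 of the 3 motifs was found in 33 windows (47.1%), against 13.6% of all windows. The windows of these genes were also richer in G and C, with a median of 57.2%, against 52.7% over all windows.

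A few windows are printed, with motif matches on either strand in capitals. Those of Cox6b2 (chr7:4753045-4753344, minus strand) and Ndufs8 (chr19:3912725-3913024, minus strand) belong to the 2 genes with the largest ADM differences. Cox6b1 (chr7:30626065-30626364, minus strand) is the widely expressed paralog of Cox6b2. Uqcrc1 (chr9:108936398-108936697, plus strand) is the complex III subunit with the largest ADM difference from acinar. Ndufb4 (chr16:37654319-37654618, minus strand) shows a window with 3 NRF1 matches.
Cox6b2: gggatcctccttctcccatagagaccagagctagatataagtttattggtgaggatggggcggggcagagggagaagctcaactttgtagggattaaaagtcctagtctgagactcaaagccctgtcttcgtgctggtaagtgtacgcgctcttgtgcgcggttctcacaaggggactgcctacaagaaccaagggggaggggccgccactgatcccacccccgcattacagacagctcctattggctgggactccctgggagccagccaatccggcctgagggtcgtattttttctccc
Cox6b1: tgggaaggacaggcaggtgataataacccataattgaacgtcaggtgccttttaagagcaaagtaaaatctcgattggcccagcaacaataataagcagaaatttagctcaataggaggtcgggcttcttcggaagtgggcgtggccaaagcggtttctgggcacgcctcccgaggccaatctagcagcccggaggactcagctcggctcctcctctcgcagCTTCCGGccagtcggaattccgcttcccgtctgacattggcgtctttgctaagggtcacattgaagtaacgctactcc
Ndufs8: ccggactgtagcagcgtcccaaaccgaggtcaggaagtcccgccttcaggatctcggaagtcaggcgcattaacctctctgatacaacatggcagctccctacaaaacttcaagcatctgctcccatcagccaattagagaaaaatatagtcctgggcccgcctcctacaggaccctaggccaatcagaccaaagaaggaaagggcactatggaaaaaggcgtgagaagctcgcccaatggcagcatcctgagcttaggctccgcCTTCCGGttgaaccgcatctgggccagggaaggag
Uqcrc1: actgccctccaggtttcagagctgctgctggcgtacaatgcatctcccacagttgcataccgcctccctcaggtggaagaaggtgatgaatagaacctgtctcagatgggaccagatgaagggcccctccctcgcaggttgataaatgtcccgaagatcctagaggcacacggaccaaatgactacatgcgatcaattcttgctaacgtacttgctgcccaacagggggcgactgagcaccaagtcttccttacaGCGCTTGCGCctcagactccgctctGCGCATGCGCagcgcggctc
Ndufb4: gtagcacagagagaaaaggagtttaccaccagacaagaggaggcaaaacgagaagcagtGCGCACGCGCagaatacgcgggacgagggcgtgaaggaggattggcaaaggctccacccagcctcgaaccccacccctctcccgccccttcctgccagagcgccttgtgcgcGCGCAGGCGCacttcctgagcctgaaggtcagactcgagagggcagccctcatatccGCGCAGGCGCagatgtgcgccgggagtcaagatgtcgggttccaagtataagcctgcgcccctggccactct
The window of Cox6b2 held none of the 3 motifs, those of Cox6b1 and Ndufs8 held the ETS motif, that of Uqcrc1 held 2 NRF1 matches and that of Ndufb4 held 3. A match is a run of letters and not a measured binding site.

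The subunits were among the well-measured genes of the array. Of the 80, 75 (93.8%) were well above background on all 3 arrays, against 45.1% of all named genes. Ndufa4l2 passed this mark in ADM and acinar cells but not in duct cells, and Cox6a2 in ADM cells alone. Cox7b2, Cox8b and Cox8c, isoforms known mainly from testis or from heart and skeletal muscle, were not well above background on any array. The 8 subunits of complex III and the 17 of complex V that met the rule were all well above background on all 3 arrays.

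**Figure D1:**
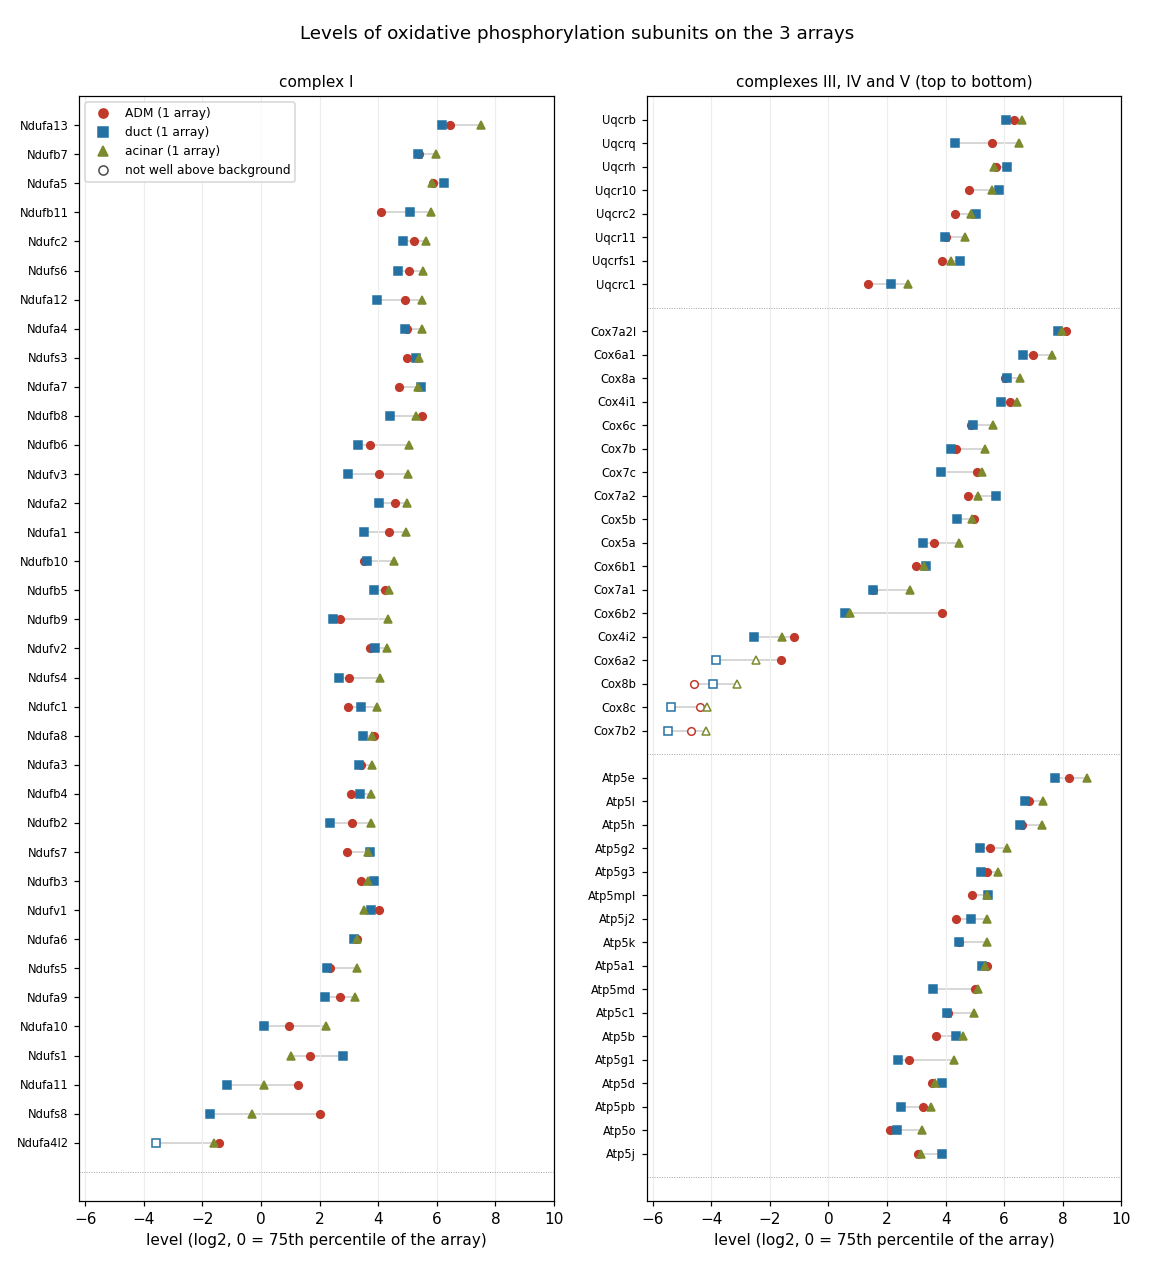
Level of all but 1 of the 80 subunits on the ADM, duct and acinar arrays (log2, 0 is the 75th percentile of the array, 1 array a group), sorted by the acinar level within complexes. Open symbols are not well above background. The acinar symbol lies to the right of both others in 50 of the 75 subunits measured on all arrays, and Cox6b2 and Ndufs8 stand out by their ADM symbols.

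For ADM against acinar, 77 subunits could be compared. The median difference was −0.52 (quartiles −0.89 and −0.12), with 61 of 77 below 0, and the single differences ran between −1.69 and 3.15. Below 0 were 48.6% of all genes compared and 58.1% of those well above background on all 3 arrays. At 2-fold, 14 of 77 subunits were lower in ADM, where 22.0% of all genes compared were lower, and 4 were higher, where 21.8% of all genes were. The share that was lower by 2-fold was thus near or under that of all genes, and most subunits lay below 0 by less than 2-fold. For duct against acinar, 76 could be compared, with a median of −0.65 (quartiles −1.11 and −0.13) and 60 of 76 below 0. The same 2 shares of genes below 0 were 45.5% and 54.3% there. In that comparison 24 subunits were at least 2-fold lower in duct, against 24.6% of all genes, and 1 was higher, against 27.4%. For ADM against duct the median was 0.15 (quartiles −0.31 and 0.49), with 11 of 77 at least 2-fold higher in ADM, against 21.6% of all genes, and 2 lower, against 24.8%. Over all genes compared the medians were 0.00, 0.00 and −0.05 in the same order of comparisons. These include bounds, and a bound against its own direction was set to 0. Genes well above background on all 3 arrays had medians of −0.23, −0.15 and −0.03. With no background filter all genes had −0.51, −0.60 and 0.16, and the subunits −0.52, −0.69 and 0.18. The comparisons share arrays and are given side by side for that reason.

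The size of the shift depended on how background and scale were treated. Normexp background correction replaced the scanner's own background subtraction. With it the median was −0.02 for ADM against acinar, 0.00 for duct against acinar and 0.02 for ADM against duct. Scaled by the median in place of the 75th percentile, the medians were −0.29, −0.26 and −0.01, while the median of all genes moved by 0.05, 0.28 and −0.16. Set against the 1066 genes whose mean level lay in the middle 50% of the subunits' levels, a range chosen after the data were seen, the subunits' median was 0.45 log2 units lower for ADM against acinar and 0.66 lower for duct against acinar. Under normexp the same gaps were 0.41 and 0.65, and with quantile normalization 0.29 and 0.54. The subunits' median thus lay below that of genes of like brightness under each of these settings, by a size that depends on the setting. Whether the lower raw signal of the acinar array has a part in the shift was not tested.

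**Figure D2:**
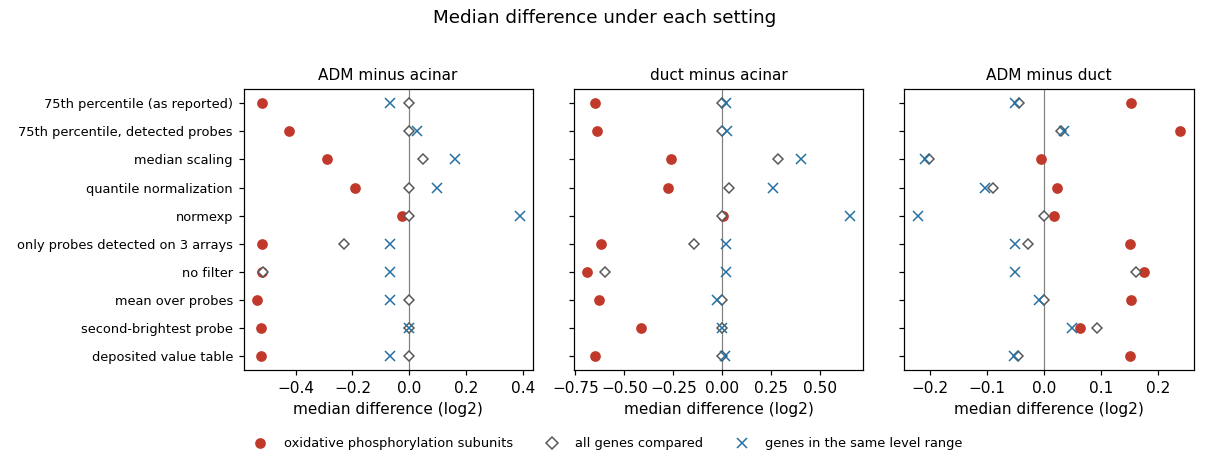
Median difference (log2) of the subunits, of all genes compared and of genes in the same level range under each treatment of background, scale, filter and probes. The subunits' point against acinar moves between −0.54 and −0.02 for ADM, and in both comparisons with acinar it lies left of the genes in the same level range in every row.

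Ranked over the 75 subunits measured on all arrays, acinar was the highest array for 50 of them (66.7%), ADM for 11 and duct for 14. Over all genes measured on all arrays acinar was the highest for 42.3%. Duct was the lowest array for 45 subunits (60.0%), against 38.6% of those genes, ADM for 25 and acinar for 5. The most frequent order thus ran acinar, ADM, duct, although neighbours in it often lay closer than the spread between probes given below. Under normexp acinar was the highest array for 25 subunits (33.3%), against 33.2% of all genes. It was the highest for 42 (56.0%) with median scaling, against 31.7%, and for 39 (52.0%) with quantile normalization, against 37.5%. With median scaling the lowest array was ADM for 32, against 31.0% of all genes, and duct for 31, against 30.1%. The full order thus depends on both the background and the scaling, and the share with acinar highest fell furthest under normexp.

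**Figure D3:**
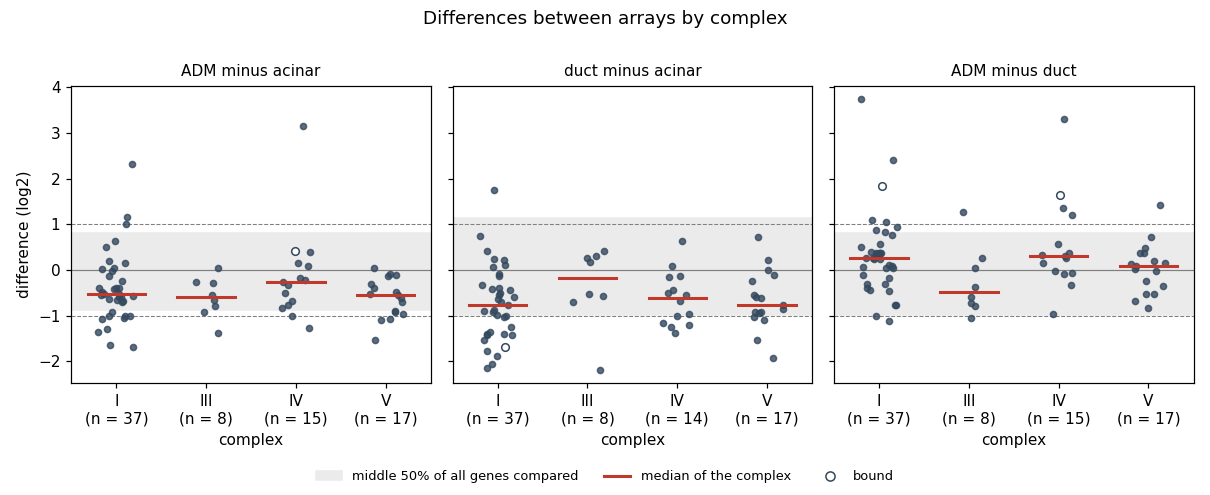
Difference of each subunit (log2) in the 3 comparisons, by complex, with the median of the complex in red, bounds as open points, the middle 50% of all genes compared in grey and 2-fold as dashed lines. The medians of all 4 complexes lie below 0 in both comparisons with acinar, the nearest to 0 being that of complex III for duct, at −0.18. Under normexp the complex IV and V medians for ADM and the complex III and IV medians for duct lie above 0, that of complex III also with median scaling and quantile normalization.

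By complex, the medians for ADM against acinar were −0.52 for complex I, −0.59 for complex III, −0.25 for complex IV and −0.55 for complex V. For duct against acinar they were −0.76, −0.18, −0.61 and −0.77 in the same order of complexes. For ADM against duct they were 0.27, −0.48, 0.32 and 0.08, with complex III alone below 0 on this scale. Several of these directions turned under other settings. Under normexp complexes IV and V had 0.042 and 0.015 for ADM against acinar, and complexes III and IV had 0.51 and 0.012 for duct against acinar. Complex III was also above 0 for duct against acinar with median scaling, at 0.21, and quantile normalization, at 0.38. For ADM against duct complex V was below 0 under these 3 settings, between −0.11 and −0.07, and complex III stayed below 0, between −0.67 and −0.64. With only 8 members, the complex III range of −1.05 to 1.27 for ADM against duct covers both directions, and the difference between complexes was not tested.

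Complex I is the NADH dehydrogenase, built from a core that carries the electron path and many accessory subunits that stabilise it. Of the 7 nuclear core subunits, 4 lay above 0 and 3 below in ADM against acinar, with a median of 0.51. The 30 accessory subunits had a median of −0.56, with 25 of 30 below 0, against 48.6% of all genes compared. At least 2-fold lower were 8 of 30 (26.7%), near the 22.0% of all genes, and 1 was higher, against 21.8%. For duct against acinar the core median was 0.07 and the accessory median −0.91. There 27 of 30 accessory subunits lay below 0, against 45.5% of all genes. At least 2-fold lower were 13 of 30 (43.3%), against 24.6% of all genes. The gap between core and accessory medians, which a common scale factor cannot move, was 1.07 log2 units for ADM against acinar and 0.71 under normexp. For duct against acinar the gap was 0.97 and, under normexp, 0.85. It rests on 7 core genes, and Ndufs8 and Ndufs1 held the largest single differences among them.

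Ndufs8, a core subunit that holds iron-sulfur clusters on the path to ubiquinone, had a level of 2.01 on the ADM array, −1.73 on the duct array and −0.32 on the acinar array. ADM was thus 5.03-fold above acinar and 13.4-fold above duct, and duct was 2.66-fold below acinar. Both ADM differences stayed at or above 2-fold under all 4 other background and scaling settings, while that of duct against acinar did not. Ndufs8 has 1 probe, and its unscaled signals on duct and acinar were dim and close, at 28.8 and 28.3 intensity units. Ndufs1, the largest core subunit, which carries electrons from the NADH-oxidising end, had 1.67 in ADM, 2.79 in duct and 1.04 in acinar. The duct array stood out for this gene, 3.37-fold above acinar and 2.17-fold above ADM, and it was the one subunit at least 2-fold higher in duct than in acinar. The NADH-binding subunit Ndufv1 had 4.03, 3.76 and 3.52 on the ADM, duct and acinar arrays. Its iron-sulfur partner Ndufv2 had 3.72, 3.89 and 4.31 on the same arrays. Ndufs3 had 4.98 in ADM, 5.30 in duct and 5.39 in acinar, and Ndufs7, another iron-sulfur subunit, had 2.95, 3.72 and 3.65. None of these 4 core subunits reached 2-fold in any comparison.

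Ndufb11, an accessory subunit of the membrane arm, had a level of 4.10 in ADM, 5.10 in duct and 5.79 in acinar, 3.23-fold lower in ADM than in acinar. Its second probe gave a difference of −0.55 for ADM against acinar where the first gave −1.69, so the size of this difference depends on the probe. Ndufb9 had 2.70 in ADM, 2.46 in duct and 4.34 in acinar, with ADM 3.11-fold and duct 3.67-fold below acinar. Ndufb6 had 3.71, 3.30 and 5.07 on the ADM, duct and acinar arrays, with ADM 2.56-fold and duct 3.40-fold below acinar. Its second probe gave −0.60 for ADM and −1.95 for duct against acinar. Both genes were thus lower on the ADM and duct arrays than on acinar, and both duct differences kept 2-fold under all 4 other settings, as did that of Ndufb9 for ADM. Ndufa10 had 0.94 in ADM, 0.10 in duct and 2.23 in acinar, with ADM 2.45-fold and duct 4.39-fold below acinar. Ndufv3, a small subunit at the NADH-oxidising end, had 4.01, 2.96 and 5.02, with duct 4.18-fold below acinar, and its second probe gave −1.09. For these 2 genes the duct array was the lowest, and the duct difference kept 2-fold under all 4 other settings.

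Ndufa11, a membrane-arm subunit, went the other way in ADM, with a level of 1.26, against −1.15 in duct and 0.09 in acinar. ADM was 2.24-fold above acinar and 5.29-fold above duct, and the second of these kept 2-fold under all 4 other settings. Ndufb8 had 5.51 in ADM, 4.41 in duct and 5.30 in acinar, 2.15-fold higher in ADM than in duct. Ndufa4l2, a paralog of Ndufa4 known to respond to hypoxia, had −1.44 in ADM and −1.60 in acinar and was not well above background in duct, at −3.57. ADM was therefore at least 3.58-fold above duct, and duct at least 3.19-fold below acinar. Ndufa4 itself had 4.97, 4.90 and 5.49 on the ADM, duct and acinar arrays, within 2-fold throughout. The other accessory subunits at least 2-fold lower in ADM than in acinar were Ndufa13, Ndufs4, Ndufb10 and Ndufv3, with differences between −1.07 and −1.01. In duct, Ndufa1, Ndufa9, Ndufa11, Ndufa12, Ndufa13, Ndufb2, Ndufs4 and Ndufs5 were also at least 2-fold lower than in acinar, with differences between −1.54 and −1.01. The remaining 13 accessory subunits (Ndufa2, Ndufa3, Ndufa5, Ndufa6, Ndufa7, Ndufa8, Ndufb3, Ndufb4, Ndufb5, Ndufb7, Ndufc1, Ndufc2 and Ndufs6) stayed within 2-fold in all comparisons. The nearest to the threshold was Ndufc1, 1.998-fold lower in ADM than in acinar, and Ndufa5 stood at 0.42 for duct against acinar, the highest of the 13 in that comparison.

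Complex III, the cytochrome bc1 complex, takes electrons from ubiquinol. Its core protein Uqcrc1 had a level of 1.34 in ADM, 2.13 in duct and 2.70 in acinar, 2.58-fold lower in ADM than in acinar, and it was the one complex III subunit past 2-fold in that comparison. The other core protein, Uqcrc2, had 4.33, 5.04 and 4.87 on the ADM, duct and acinar arrays. Uqcrfs1, the Rieske iron-sulfur protein that hands on the electron, had 3.89, 4.48 and 4.17. ADM was the lowest array for these 3 genes. The hinge protein Uqcrh, which docks near cytochrome c1, had 5.71 in ADM, 6.08 in duct and 5.67 in acinar, and its probes agreed closely. Uqcrq, a small subunit next to cytochrome b, had 5.58 in ADM, 4.31 in duct and 6.49 in acinar. Duct was 4.54-fold below acinar and ADM 2.42-fold above duct. Its second probe gave −1.97 for duct against acinar where the first gave −2.18, so the low duct value appeared on both. Uqcr10 had 4.79 in ADM, 5.84 in duct and 5.57 in acinar. ADM was 2.06-fold below duct, but of its 3 probes 1 gave 0.66 for ADM against duct, the opposite direction. Uqcrb had 6.34, 6.07 and 6.59 and Uqcr11 had 4.01, 3.97 and 4.66, both within 2-fold throughout.

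Complex IV, cytochrome c oxidase, comes in tissue forms, because several of its nuclear subunits have paralogs. The largest difference of all 80 subunits from acinar was that of Cox6b2, the form of subunit 6b known from testis. Its level was 3.88 in ADM, 0.58 in duct and 0.73 in acinar, so that ADM was 8.87-fold above acinar and 9.87-fold above duct, and the duct and acinar values lay close together. It was well above background on all 3 arrays and kept 2-fold in both ADM comparisons under all 4 other settings, but it has 1 probe. Its paralog Cox6b1 had 3.00 in ADM, 3.34 in duct and 3.25 in acinar, within 2-fold throughout.

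The other tissue forms differed less or were near background. Cox4i2, known from lung and from hypoxia, had −1.17 in ADM, −2.53 in duct and −1.57 in acinar, 2.58-fold higher in ADM than in duct, while the common form Cox4i1 had 6.20, 5.88 and 6.42. Cox6a2, the heart and skeletal muscle form, had −1.62 in ADM and was not well above background at −3.85 in duct and −2.49 in acinar. ADM was at least 3.15-fold above duct and at least 1.34-fold above acinar. Of 10 muscle markers, 4 were well above background on ADM, 4 on duct and 2 on acinar, with Ckm, Mb, Myh1, Myh4 and Myl1 on none, and their summed signal was 1.43, 1.83 and 2.76 in that order. The common form Cox6a1 had 6.97, 6.63 and 7.65 on the ADM, duct and acinar arrays, 2.02-fold lower in duct than in acinar. Cox7a1, also a muscle form, had 1.51 in ADM, 1.53 in duct and 2.78 in acinar, 2.42-fold lower in ADM and 2.38-fold lower in duct than in acinar. Cox7a2 had 4.77, 5.73 and 5.10, with duct the highest array. Cox7a2l had 8.11, 7.84 and 7.96, and of its 3 probes 1 opposed the sign of the others for ADM against acinar. Cox7b had 4.34 in ADM, 4.19 in duct and 5.35 in acinar, lower by 2.00-fold in ADM and 2.23-fold in duct. Cox8a had 6.02, 6.10 and 6.53, within 2-fold throughout. Cox7b2 had −4.69 in ADM, −5.49 in duct and −4.18 in acinar, Cox8b −4.60, −3.95 and −3.12, and Cox8c −4.37, −5.37 and −4.15, none well above background, so no difference is given.

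Of the remaining complex IV subunits, Cox5a, a structural subunit on the matrix side, had 3.62 in ADM, 3.24 in duct and 4.45 in acinar, 2.31-fold lower in duct than in acinar. Cox7c had 5.06, 3.86 and 5.24 on the ADM, duct and acinar arrays. Duct was 2.60-fold below acinar and ADM 2.30-fold above duct on the probe that stands for it, while the other probes gave −0.39 and −0.45 for duct against acinar. Cox5b and Cox6c stayed within 2-fold throughout. Complex IV without its tissue forms, a choice made after the data were seen, had a median of −0.42 for ADM against acinar, −0.61 for duct against acinar and 0.23 for ADM against duct, over 10 genes.

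Complex V is the ATP synthase. Its F1 part holds the catalytic sites, and the membrane part carries the ring of c subunits that the proton flow turns. The F1 subunits stayed within 2-fold, apart from Atp5e in duct. Atp5a1, the alpha subunit, had 5.40 in ADM, 5.25 in duct and 5.36 in acinar, and these 3 values lay close together. Atp5b, the catalytic beta subunit, had 3.67, 4.36 and 4.59, with ADM 1.89-fold below acinar. Atp5c1, the gamma stalk, had 4.07 in ADM, 4.04 in duct and 4.97 in acinar, 1.86-fold and 1.90-fold below acinar. Atp5d had 3.53, 3.87 and 3.65, all within 2-fold. Atp5e had 8.22 in ADM, 7.73 in duct and 8.82 in acinar, with duct 2.14-fold below acinar.

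The c ring subunit is made by 3 genes whose mature proteins are identical. Atp5g1 had a level of 2.75 in ADM, 2.37 in duct and 4.29 in acinar, 2.90-fold lower in ADM and 3.78-fold lower in duct than in acinar, and the duct difference kept 2-fold under all 4 other settings. Atp5g2 had 5.53, 5.16 and 6.08 and Atp5g3 had 5.40, 5.20 and 5.79 on the ADM, duct and acinar arrays. All 3 genes were highest on acinar and lowest on duct, and Atp5g1 was the one past 2-fold. Of the stalk and membrane subunits, Atp5o, the protein that joins stalk and head, had 2.10 in ADM, 2.34 in duct and 3.19 in acinar, 2.14-fold lower in ADM. Atp5md, a small subunit linked to dimers of the enzyme, had 4.99 in ADM, 3.56 in duct and 5.09 in acinar, 2.89-fold lower in duct than in acinar and 2.69-fold higher in ADM than in duct. Atp5pb, subunit b of the stator stalk, had 3.21, 2.49 and 3.51, with duct 2.03-fold below acinar. Atp5j2, a membrane subunit, had 4.34 in ADM, 4.86 in duct and 5.41 in acinar, 2.09-fold lower in ADM. Its 2 probes disagreed, with −1.07 and −0.19 for ADM against acinar and −0.55 and −1.97 for duct against acinar, so its direction for ADM against duct is not settled. Atp5j was the subunit of complex V that stood highest in duct relative to acinar, at 0.74, with levels of 3.06 in ADM, 3.88 in duct and 3.14 in acinar. Atp5h, Atp5k, Atp5l and Atp5mpl stayed within 2-fold in all comparisons.

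**Figure D4:**
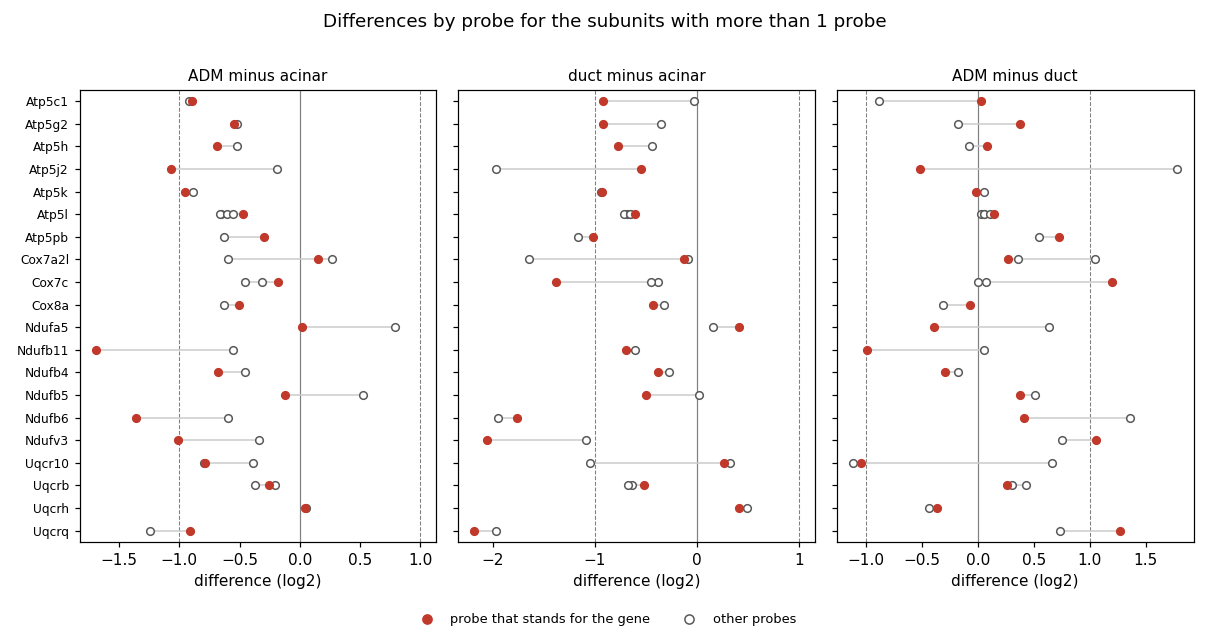
Differences (log2) by probe for the 20 subunits with more than 1 probe, with the probe that stands for the gene in red, other probes open and 2-fold as dashed lines. The probes of Ndufb11, Cox7a2l, Uqcr10 and Atp5j2 lie far apart, and those of Atp5l, Atp5k and Uqcrh lie together.

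In the absence of replicates, the probes of one gene gave a measure of how far a difference between 2 arrays varies with the probe. For the 20 subunits with more than 1 probe (47 probes), the pooled SD of a difference between probes of one gene was 0.32 for ADM against acinar, 0.46 for duct against acinar and 0.56 for ADM against duct. Differences under about that size, which include many of those above, are within the spread between probes. A difference above 1 SD is not thereby outside that spread, which also leaves out any difference between animals. The probes of one gene had opposite signs in 2, 2 and 9 of the 20 genes in that order of comparisons, and in no gene did they oppose each other by 2-fold. Repeat spots of 432 probes differed less, with a median SD of 0.15 on the ADM array, 0.12 on the duct array and 0.19 on the acinar array.

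Some subunits kept a 2-fold difference under all 4 other treatments of background and scale. The share of all genes that did so was not computed, so their number is not read as a trait of the subunits. Against acinar, Cox6b2 and Ndufs8 stayed higher in ADM and Ndufb11 and Ndufb9 stayed lower, although the other probe of Ndufb11 gave −0.55. In duct against acinar, Ndufs1 stayed higher and Ndufa10, Ndufv3, Ndufb9, Ndufb6, Uqcrq and Atp5g1 stayed lower. In ADM against duct, Ndufs8, Ndufa11, Uqcrq, Cox6b2 and Atp5md stayed higher and Ndufs1 stayed lower.

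Neighbouring gene lists were set beside the subunits. Proteins of the cytosolic ribosome, the machinery that makes the nuclear-encoded subunits, had medians of −0.43, −0.73 and 0.20 in ADM against acinar, duct against acinar and ADM against duct over 48 genes. The subunits' medians minus these were −0.09, 0.08 and −0.05. With quantile normalization the gaps were −0.24, −0.44 and 0.18, with ribosomal medians above 0 against acinar, so the closeness of the lists depends on the scaling. The 77 mitochondrial ribosomal proteins, which translate the mitochondrially encoded subunits, had medians of −0.07, −0.27 and 0.10. In ADM against acinar 8 of 76 of them were at least 2-fold higher, against 21.8% of all genes, and 18 lower, against 22.0%, a share near that of all genes. Complex II (4 genes) had medians of −0.22, −0.19 and −0.02, with none at 2-fold. Citric acid cycle genes (17) had −0.19, 0.18 and −0.50, glycolysis genes (18) had 0.20, 0.25 and −0.22, and the core of the proteasome (14) had 0.25, −0.30 and 0.37. Some of these directions turned with median scaling and with normexp. The mitochondrial ribosome then had 0.14 and 0.09 for ADM against acinar, and 0.12 and 0.18 for duct against acinar. The citric acid cycle had 0.04 and 0.09 for ADM against acinar, and the proteasome core 0.085 and 0.25 for duct against acinar.

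**Figure D5:**
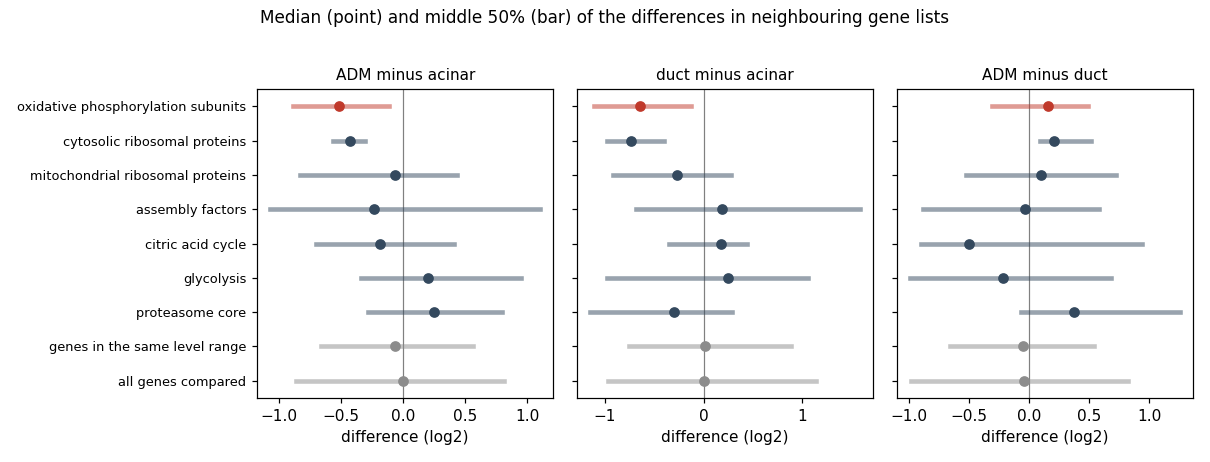
Median (point) and middle 50% (bar) of the differences (log2) of the subunits, of neighbouring gene lists and of background genes in the 3 comparisons. The subunits and the cytosolic ribosomal proteins have the lowest medians against acinar, −0.52 and −0.43 for ADM and −0.65 and −0.73 for duct.

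Assembly factors, which insert cofactors and put the complexes together, had counts near those of all genes. Of 35 compared for ADM against acinar, 10 were at least 2-fold higher, against 21.8% of all genes, and 9 lower, against 22.0%, with a median of −0.24. Of 37 compared for duct against acinar, 13 were higher, against 27.4% of all genes, and 9 lower, against 24.6%, with a median of 0.19. Sco2, a copper carrier for complex IV, had levels of 1.93 in ADM and 1.07 in duct and was not well above background in acinar at −1.93, at least 3.87 log2 units higher in ADM and 3.01 higher in duct. Ndufaf6, a complex I assembly factor, was likewise at least 3.72 log2 units higher in ADM, with levels of 1.67 in ADM, −0.51 in duct and, not well above background, −4.20 in acinar. Atpaf1, which assembles the F1 part, was at 0.18 in acinar and not well above background in ADM at −5.33 or in duct at −5.53, at least 3.33 lower in ADM and 3.45 lower in duct. Among the carriers, Cycs, cytochrome c, had 2.04 in ADM, 1.07 in duct and 3.78 in acinar, lower by 1.74 and 2.71 log2 units. Its other probe above background gave −1.06 and −0.27, so the size in duct depends on the probe. The ADP/ATP carrier Slc25a4 had 4.06, 3.52 and 2.87, highest in ADM, and its relative Slc25a5 had 3.92, 2.55 and 4.89, highest in acinar.

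Of 13 regulators of mitochondrial biogenesis compared, ADM was above acinar by 2-fold or more for 4, against 21.8% of all genes, and below it for 5, against 22.0%. Ppargc1a, the coactivator that drives expression of respiratory genes, was not well above background in ADM, at −5.36, and had 1.104 in duct and 2.22 in acinar. ADM was at least 5.37 log2 units below acinar and at least 4.25 below duct, and duct was 1.12 below acinar. Its second probe was also not well above background in ADM, at −3.17, with −2.71 in duct and 0.42 in acinar. Both probes were thus highest in acinar. Pprc1, a related coactivator, had −0.54 in ADM, −1.51 in duct and 1.45 in acinar. Gabpb1, a subunit of the ETS-family factor GABP, had 0.91, 1.78 and −1.84 on its brightest probe, higher in ADM and in duct than in acinar. The second Gabpb1 probe was well above background in duct alone, at −1.82, with −5.22 in ADM and −4.15 in acinar. Nrf1 had 1.65 in ADM, 1.99 in duct and 1.96 in acinar on its brightest probe, within 2-fold throughout, while its dimmer probes were not well above background in ADM and gave other patterns.

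The subunits' differences were also set out by promoter motif, and whether they differ between these sets was not tested. The 32 genes with at least 1 of the 3 motifs had medians of −0.56 for ADM against acinar, −0.65 for duct against acinar and 0.07 for ADM against duct, and the 31 compared genes with none had −0.55, −0.69 and 0.27. The 15 genes with the NRF1 motif had −0.68, −0.85 and 0.09. Of the windows printed above, that of Ndufb4, with 3 NRF1 matches, belongs to a gene with levels of 3.08 in ADM, 3.38 in duct and 3.76 in acinar, within 2-fold throughout. By complex, at least 1 motif was found in 16 of 34 complex I windows (47.1%) and 11 of 18 complex V windows (61.1%). It was found in 3 of 5 complex III windows (60.0%) and 3 of 13 complex IV windows (23.1%). The share over all windows was 13.6%, and the complex III and IV shares rest on 3 windows each.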

How the data were processed

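RNA from laser-microdissected ADM, ductal and acinar cells was amplified, labelled with Cy3 and hybridised to 1 array per group, per the labels' protocols. The deposited scanner tables hold linear spot intensity. The software was Agilent Feature Extraction 11.5.1.1, which corrected each spot for background and left the arrays unscaled, per the file headers. The deposited value table holds log2 values that equal the log2 processed signal plus 1 constant per array to within 0.001 in all 32905 probes compared, so it was an alternative only.

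Each array had 62976 spots, 3671 of them controls. Outlier-flagged spots were dropped with the controls, repeat spots were averaged by probe on the log2 scale, and the array's 75th percentile over 55664 probes was subtracted. Probes were named through the accession in the file and a RefSeq table of GRCm38.p6 (28020 probes with 1 symbol, 27644 unnamed here). The brightest probe stood for a gene. A comparison needed a probe well above background on either of its arrays. The dim side then took that array's lowest well-detected signal, or its own where higher, which makes the difference a bound. A bound that came out against its own direction was set to no difference. With 1 array per group there was no test. Python 3.11.15, pandas 2.3.3 and limma 3.58.1 in R 4.3.3 (normexp with offset 50, quantile normalization) were used, and the difference and bound rules were tested on simulated data. Values on all arrays were given for the complex I core, complex III, the F1 part and the paralog forms. To these were added up to 3 subunits per complex, comparison and direction with the largest difference of at least 2-fold, and from other lists the genes a result turned on. The members, the 23 gene lists and the alternatives were chosen with earlier results of these data known. The values of 1 complex I subunit are not reported here, although it stays in the counts and medians.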

Additional observations from a re-analysis of the deposited data

How the results depend on the processing

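The 3 arrays, 1 per group, limit every value, and no difference between mice can be estimated. No paired analysis was possible because each group has 1 array and the labels give no replicate numbers, and no array could be left out. Of the medians and counts recomputed under other settings, 164 stayed within the interval or factor allowed, 51 moved and 4 were counted as reversed. Of the single values at least 2-fold apart, 365 stayed, 92 moved and 1 was counted as reversed. The medians that changed sign, given here and by complex above, outnumber those counted as reversed. For ADM against acinar the median of all subunits was −0.29 with median scaling, −0.19 with quantile normalization and −0.025 with normexp, and that of complex I was −0.29, −0.24 and −0.034. Complex V had −0.18 with quantile normalization and 0.015 with normexp, and Atp5j2, whose brightest probe differed there, had 0.22 with normexp. The count of 4 higher subunits was 2 with normexp, 0 on the second-brightest probe (20 genes) and 2 at 3-fold. The count of 14 lower ones was 8 with the 75th percentile over detected probes, 7 with median scaling, 7 with quantile normalization, 2 with normexp, 1 on the second probe, 33 at 1.5-fold and 2 at 3-fold. For duct against acinar the median of all subunits was −0.26 with median scaling, −0.28 with quantile normalization, 0.0048 with normexp and −0.41 on the second probe. Complex I had −0.37, −0.44 and −0.12 under the same 3 scalings, complex III 0.51 and complex IV 0.012 with normexp, and complex V −0.12 with quantile normalization and −0.19 with normexp. The count of 1 higher subunit was 4 with median scaling, 4 with quantile normalization, 5 with normexp, 0 on the second probe and 4 at 1.5-fold, and that of 24 lower ones was 13 with median scaling, 7 with normexp, 5 on the second probe, 42 at 1.5-fold and 7 at 3-fold. For ADM against duct the median of all subunits was −0.0056 with median scaling, 0.023 with quantile normalization and 0.017 with normexp, and complex I had 0.57 on the second probe of 6 genes. The 11 higher subunits were 6 with normexp, 2 on the second probe, 5 at 3-fold and 7 without the tissue forms. The 2 lower ones were 1 with the 75th percentile over detected probes, 4 with median scaling, 4 with quantile normalization, 4 with normexp, 1 with the mean over probes, 1 on the second probe, 11 at 1.5-fold and 0 at 3-fold. The cause of these changes was not tested, apart from the fewer genes with a second probe. The shares of all genes at these other settings and thresholds are not given. The counts therefore show only how far they move and are not read as a trait of the subunits. The setting without the tissue forms, like that with Ndufa4 counted in complex IV, was chosen after seeing the data.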
